A study of Rattus norvegicus with 10 samples.

Results

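The genes Lrrc52, Shank2 and Cib2 encode an ion channel partner, a scaffold protein and a calcium-binding protein. Each is described through the 1 mRNA probe that the study's list pairs with it, 3 of the 38804 probes other than controls, and whether further probes read the same genes was not examined. They were taken from a list of leading down-regulated mRNAs that the study made from these same arrays. The difference between LPS and control therefore chose them, and their levels are given below as a description. Where a test across all probes is mentioned, its calls place the genes among the other probes and are no evidence for them.

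The samples, labelled as blood vessel, were aortas of male Wistar rats aged 8 weeks. The LPS group was injected into the abdominal cavity with lipopolysaccharide at 10 mg/kg in saline, and the control group with saline alone. All aortas were collected at 24 h and frozen, and the RNA of 5 LPS rats (rats 1, 3, 5, 6 and 7) and 5 control rats (rats 15, 16, 17, 18 and 20) was hybridised to 1 single-colour Agilent array per rat. Lipopolysaccharide is a component of the wall of Gram-negative bacteria and a single injection gives a model of endotoxaemia rather than an infection, and whether the fat around the aorta was removed is not given in the sources used here.

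Lrrc52 is a membrane protein with leucine-rich repeats. It is one of the auxiliary gamma subunits of the large-conductance calcium-activated potassium channel (the BK channel, whose pore is Kcnma1), and in sperm it accompanies the related Slo3 channel (Kcnu1). In arterial smooth muscle the BK channel opens on depolarisation and local calcium release and limits contraction, with Kcnmb1 as its best known auxiliary subunit there. Shank2 is a scaffold with ankyrin repeats, an SH3 domain and a PDZ domain that joins receptors to Homer and Dlgap proteins at the postsynaptic density, and it also occurs in epithelia. Cib2 is a small protein with EF-hands, the calcium-binding loops also found in calmodulin, and is needed with the Tmc channels for mechanotransduction in the hair cells of the inner ear.

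The arrays differed in brightness. The 75th percentile of the background-corrected intensity lay between 223.8 and 453.7 on the LPS arrays and between 190.3 and 399.4 on the control arrays, and between 79.6% and 92.6% of probes were well above background on an array, as the scanner software judges it. Control rat 16 had the lowest value of both. LPS rats 1 and 3 differed little, as did control rats 15 and 17. At the median over probes, their difference in signal was within the error that the software gives each spot. The median squared difference, divided by the value that spot error alone would give, was 0.984 and 0.778 for these pairs, and at least 4.01 for the other 43 pairs. The mean of each such pair was therefore used as a single sample, so that n is 4 in both groups. Single probes could differ by more. For Shank2, control rats 17 and 15 were 2.63 times their combined spot error apart. Its level was -2.34 in LPS rat 1 and -1.78 in LPS rat 3, each with a spot error of 0.15. Whether such a pair is 1 RNA hybridised again or the RNA of separate rats, as the labels have it, was not tested. The arrays fell into 3 sets that share a scan date entry in the file headers. These sets are called slides here, although no label names a slide. Slide 1 held control rats 15, 16, 17 and 18. Slide 2 held LPS rats 1, 3 and 5 with control rat 20, and slide 3 held LPS rats 6 and 7. No label states how the animals were assigned to slides, and the aorta's own cell types could not be checked, because none of the 6 smooth muscle or 5 endothelial marker genes listed for that purpose is paired with a probe here.

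All 3 genes were lower in every LPS sample than in any control sample, as were 1.71% of all tested probes. They were chosen on this contrast, so nothing is read from that count. The log2 difference between the group means was -4.18 for Lrrc52, -4.12 for Shank2 and -2.26 for Cib2. Values are log2 intensities relative to the 75th percentile of their own array, so that 0 is the brightness of that percentile. In whole aorta, fewer cells of a type and less RNA per cell cannot be told apart.

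**Figure D1:**
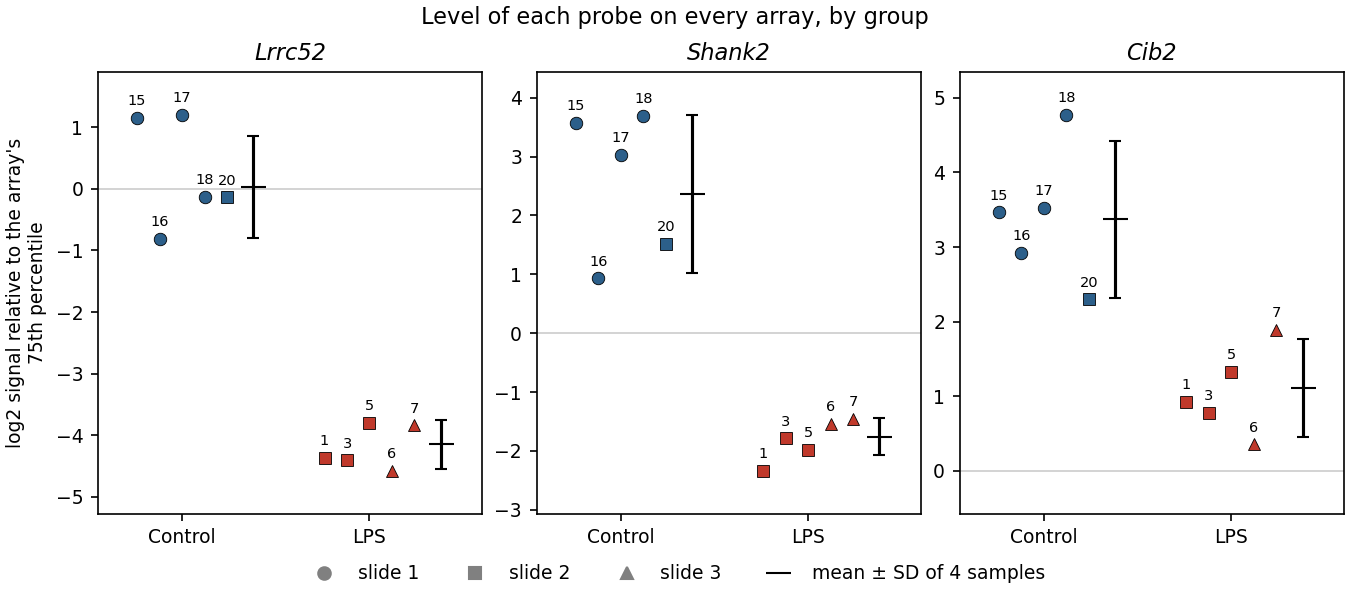
Level of each probe on every array, as the log2 signal relative to the array's 75th percentile, with the rat number above each point, the slide given by the marker, and the mean ± SD of the 4 samples of a group beside the points. In all 3 panels the LPS points lie below the control points, with a wide gap for Lrrc52 (2.99) and Shank2 (2.38) and a narrow one for Cib2 (0.41).

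Lrrc52, the channel partner, lies on chromosome 13 of the rat assembly GRCr8 between positions 82130174 and 82153569, on the minus strand, with 1 RefSeq transcript. Its level was -4.37 in LPS rat 1, -4.40 in LPS rat 3, -3.80 in LPS rat 5, -4.58 in LPS rat 6 and -3.84 in LPS rat 7. In the control rats it was 1.16 in rat 15, -0.81 in rat 16, 1.20 in rat 17, -0.13 in rat 18 and -0.13 in rat 20. All LPS rats were below all controls, among which rats 15 and 17 were high and rat 16 low. The mean was -4.15 ± 0.39 (SD, n = 4) after LPS and 0.03 ± 0.83 (SD, n = 4) after saline, with an SD above that of 57.7% of the tested probes after LPS and of 84.4% after saline. The difference of -4.18 had a standard error of 0.40 and corresponds to an 18.1-fold lower level. Standard errors here and below come from limma, which also draws on the spread of the other tested probes. With normexp background correction, which adds an offset to every spot, the log2 difference was -2.36. Without normexp, in the reported setting, the lowest control sample was 7.94-fold above the highest LPS sample.

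The Lrrc52 spot was dim after LPS. Its background-corrected intensity ran from 12.3 to 25.8 units on the LPS arrays (median 16.1) and from 108 to 699 on the control arrays (median 364). The raw spot was 2.77 to 3.75 times its local background on the LPS arrays and 7.76 to 48.6 times on the control arrays. The software called the spot well above background on all 10 arrays, so a level was measured in both groups. Its own error was 11.2% to 17.1% of the signal after LPS, against at most 10.1% in the controls.

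**Figure D2:**
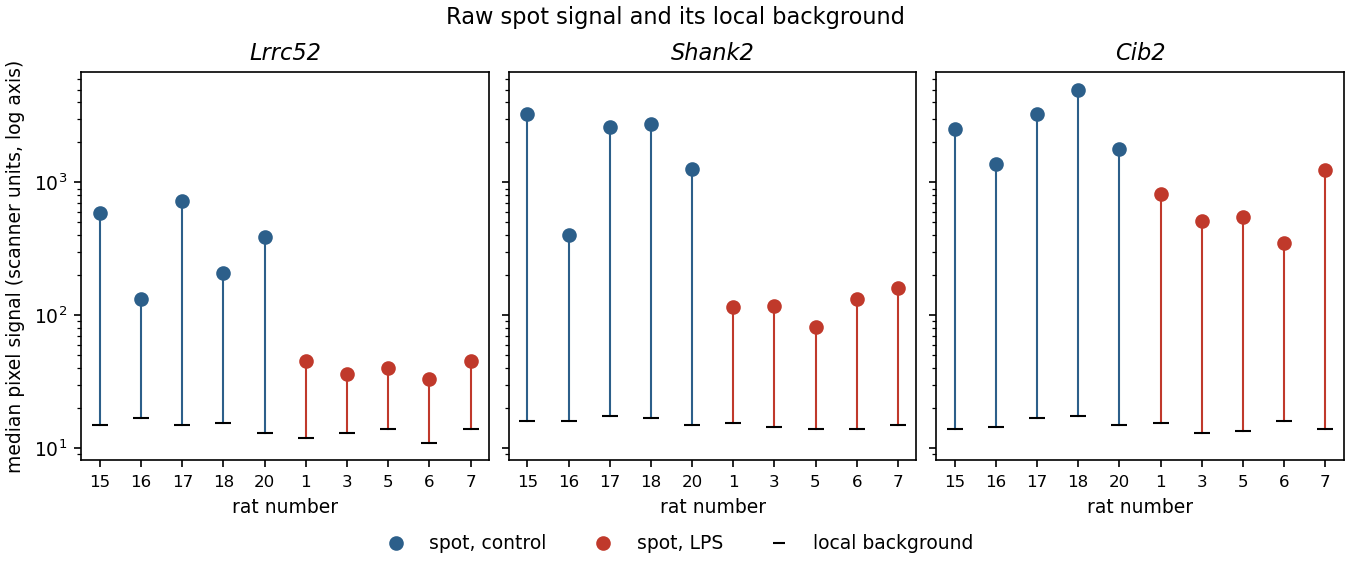
Raw median pixel signal of each spot (circle) and its local background (black dash) on the 10 arrays, in scanner units on a log axis, with control rats at left and LPS rats at right in each panel. The Lrrc52 spots of LPS rats stay within 3.75 times their background, whereas those of Cib2 are at least 22.0 times theirs in both groups.

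Shank2, the scaffold, lies on chromosome 1 of GRCr8 between positions 208575144 and 209020300 and has 22 RefSeq transcripts, and the study's list assigns its probe to the Ensembl transcript ENSRNOT00000092278. Its level was -2.34 in LPS rat 1, -1.78 in LPS rat 3, -1.98 in LPS rat 5, -1.54 in LPS rat 6 and -1.45 in LPS rat 7. In the control rats it was 3.57 in rat 15, 0.93 in rat 16, 3.03 in rat 17, 3.70 in rat 18 and 1.52 in rat 20. The controls fell into a high set (rats 15, 17 and 18) and a lower pair (rats 16 and 20), and the LPS rats were below both. The mean was -1.76 ± 0.31 (SD, n = 4) after LPS and 2.36 ± 1.34 (SD, n = 4) in the controls. The difference of -4.12 had a standard error of 0.57 and corresponds to a 17.4-fold lower level, and it was -3.48 with normexp. The closest samples of the groups were 5.21-fold apart.

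The spread of Shank2 was 4.36 times as large in the control samples as in the LPS samples. Its control SD exceeded that of 96.4% of the tested probes, and its LPS SD that of 41.6%. The highest control sample was 6.79-fold above the lowest, whereas the LPS samples lay within 1.53-fold. On the linear scale the Shank2 spot gave 56.7 to 135 units after LPS and 363 to 3046 units in the controls, between 5.79 and 10.7 times its local background after LPS and between 25.3 and 206 times in the controls.

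Cib2, the calcium-binding protein, lies on chromosome 8 of GRCr8 between positions 63826410 and 63843301, on the minus strand, with 2 RefSeq transcripts. Its level was 0.93 in LPS rat 1, 0.78 in LPS rat 3, 1.33 in LPS rat 5, 0.36 in LPS rat 6 and 1.89 in LPS rat 7. In the control rats it was 3.46 in rat 15, 2.92 in rat 16, 3.53 in rat 17, 4.77 in rat 18 and 2.30 in rat 20. LPS rat 7 was the highest of its group and control rat 20 the lowest of its own, and these 2 arrays nearly met. The mean was 1.11 ± 0.66 (SD, n = 4) after LPS and 3.37 ± 1.05 (SD, n = 4) in the controls. The difference of -2.26 had a standard error of 0.52 and corresponds to a 4.80-fold lower level. With the slide as a block it was -1.21 with a standard error of 0.86. That difference rests on slide 2, where control rat 20 is the only control.

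The gap between the groups was only 0.41 for Cib2, or 1.32-fold. This is 1.99 times the combined spot error of the 2 arrays on either side of it, against 13.0 times for Lrrc52 and 11.6 times for Shank2. The Cib2 spot was bright throughout, with 379 to 1371 units after LPS and 1444 to 5391 units in the controls. In these unscaled units its groups did not overlap either, and the closest arrays were LPS rat 7 and control rat 16.

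The order of the 10 arrays was read with the spot error in view. A step between neighbouring arrays was set against the combined error of their 2 spots. For Lrrc52, 5 of the 9 steps were under 2 combined errors, so that LPS rats 6, 3 and 1 were not separated from one another, nor LPS rats 7 and 5, control rats 20 and 18, or control rats 15 and 17. For Shank2, 5 of the 9 steps were under 2 errors, namely all 4 within the LPS group and the one between control rats 15 and 18. For Cib2, 4 of the 9 steps were under 2 errors, which includes the step from LPS rat 7 to control rat 20.

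The values that chose the genes can be placed among all probes. Of the 33702 mRNA and lncRNA probes well above background on at least 5 arrays, 69 (0.205%) had a log2 difference under -2, and so did all 3 genes. Among the 26240 tested mRNA probes, Lrrc52 had the most negative log2 difference as reported here, Shank2 the next and Cib2 ranked 39. The difference was more negative for Shank2 than for Lrrc52 with normexp (-3.48 against -2.36), and also without LPS rat 6, control rat 16, control rat 20 or control rats 15 and 17, or with the array of LPS rat 3 or of control rat 17 dropped from its pair. All 3 genes had groups without overlap, as had 577 of the 33702 tested probes in the same direction (1.71%). That number was 42 without scaling between arrays. It was 1732 without control rat 16, 1193 without LPS rats 1 and 3, 1028 without LPS rat 7, 920 without control rat 20, 912 without control rats 15 and 17 and 869 without LPS rat 5, where fewer samples have to be separated, and the 3 genes were among the probes without overlap each time. With limma and Benjamini-Hochberg adjustment over all tested probes, 20 probes were called lower in LPS (0.0593%), which required more than a 1.5-fold change besides an adjusted p below 0.05, and Lrrc52 and Shank2 were among them while Cib2 was not. With the 10 arrays taken as separate samples, 111 probes were called lower (0.329%), all 3 genes included. Without LPS rat 7, 4 probes were called lower (0.0119%), and Lrrc52 was the one of the 3 genes among them. The count was 7 without LPS rat 6, 8 without LPS rat 5, 8 without LPS rats 1 and 3, 11 without control rats 15 and 17 and 13 without control rat 20, with Lrrc52 and Shank2 called in each of these. Since the genes were chosen on this contrast, nothing is read from these counts.

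**Figure D3:**
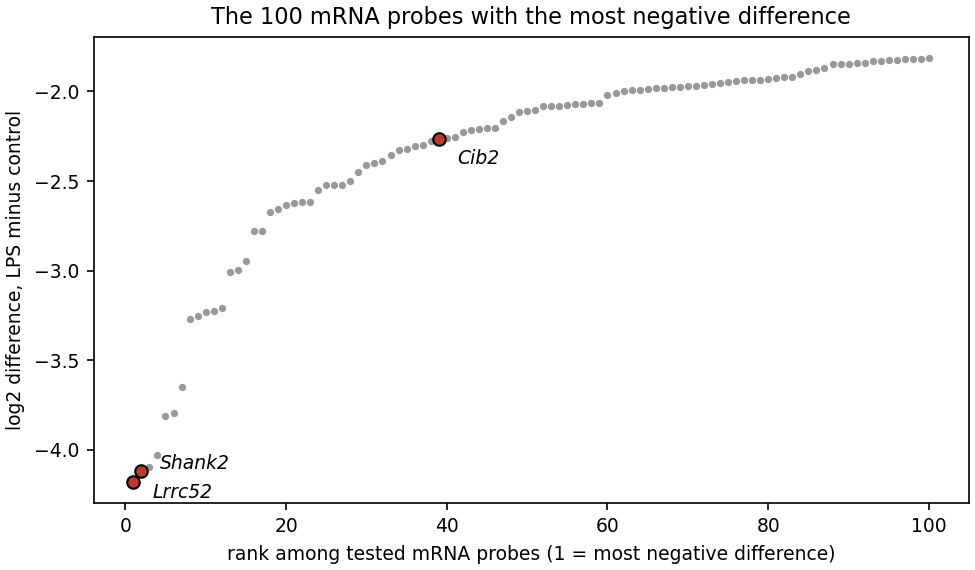
The 100 tested mRNA probes with the most negative log2 difference between LPS and control (y axis), in order of rank (x axis), with the 3 genes marked in red. In the reported setting Lrrc52 (-4.18) and Shank2 (-4.12) lie at the lower left and Cib2 at rank 39 (-2.26), whereas with normexp, not drawn here, Lrrc52 had -2.36 and Shank2 -3.48.

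Slide and group were partly shared, since slide 1 held only control arrays and slide 3 only LPS arrays. Slide 2 allows a comparison within 1 slide, of 2 LPS samples (rats 1 and 3 averaged, and rat 5) with control rat 20. There the log2 difference was -3.96 for Lrrc52, a 15.5-fold lower level, and -3.54 for Shank2, an 11.6-fold lower level. For Cib2 it was -1.21, or 2.31-fold, and control rat 20 was the lowest control for this gene. Each LPS array of slide 2 was below the control array of that slide for all 3 genes, with 1.33 against 2.30 as the closest values, for Cib2. Of 33700 tested probes with values there, 8021 (23.8%) met the same condition on slide 2. When limma was given the slide as a block, 3 of 33696 probes were called lower (0.0089%) and none of these was one of the 3 genes. With that block over the 10 separate arrays, 80 of 33694 probes were called lower (0.237%), again with none of the 3 genes among them. Since slides 1 and 3 each held a single group, the difference fitted with the block rests on slide 2 alone. It therefore repeats the comparison with control rat 20, the only control on that slide. Beyond slide 2, slide and group cannot be told apart.

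Some rats were high or low within a group for all 3 genes, and others for only some of them. Values here are log2 deviations from the mean of a sample's own group. Control rats 15 and 17, taken as 1 sample, stood at 1.15 for Lrrc52, 0.94 for Shank2 and 0.12 for Cib2. Control rat 18 stood at -0.15 for Lrrc52, 1.33 for Shank2 and 1.40 for Cib2. The former sample was thus high for the channel partner and the scaffold, and the latter for the scaffold and the calcium-binding protein. Control rat 16 was low for all 3 genes, at -0.84, -1.43 and -0.45 in the same order. Control rat 20 was low for Shank2 (-0.85) and Cib2 (-1.07). For Lrrc52 it stood at -0.16 and was not separated from control rat 18. The deviations of the LPS samples were smaller for each gene at their extremes, with the widest for Cib2, at 0.79 in rat 7 and -0.75 in rat 6. LPS rat 7 was above its group mean for Lrrc52 (0.31) and Shank2 (0.31) too. LPS rats 1 and 3, taken as 1 sample, were below it for all 3 genes, at -0.24, -0.30 and -0.25 in the same order. For Shank2 the level of rat 3 alone (-1.78) was near the group mean of -1.76, and that of rat 1 was -2.34.

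**Figure D4:**
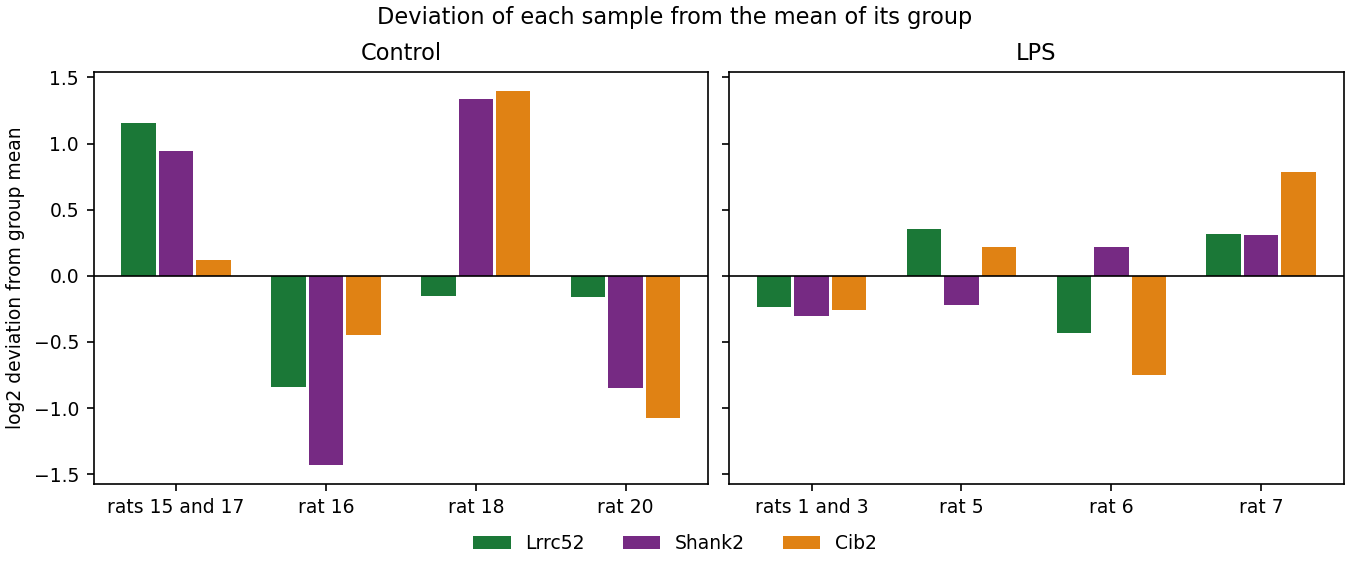
Deviation of each sample from its group mean on the log2 scale (bars, 4 samples per group), with 1 colour per gene. Control rat 18 is high for Shank2 (1.33) and Cib2 (1.40) but not for Lrrc52 (-0.15), and the bars of the LPS samples stay within 0.79.

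Only 40 probes of the array are paired here with a gene or transcript name, 20 for mRNAs and 20 for lncRNAs, all picked by the study for their change in these arrays. Among these, likeness to each gene was measured as the root mean square difference between log2 profiles over the 8 samples, each centred on its own mean, where a smaller value means a closer pattern. Nr0b2, a nuclear receptor that represses transcription, was closest to Lrrc52 (0.54), followed by Shank2 (0.69) and Ucp1, the uncoupling protein of brown fat (0.82). Closest to Shank2 were Lrrc52 (0.69), Ucp1 (0.70) and Nr0b2 (1.001). Cib2 was closest to the lncRNAs ENSRNOT00000083119 (0.50), ENSRNOT00000086932 (0.51) and XR_597034 (0.53), and stood farther from Shank2 (1.11) and Lrrc52 (1.23). With normexp, Lrrc52 and Shank2 were 0.825 apart and neither was among the 3 named probes nearest to the other, those nearest to Shank2 being Ucp1 (0.534), Nr0b2 (0.794) and Mtfp1 (0.813). This measure follows the size of the group difference as well as the variation between rats.

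After the group means were subtracted, the closest named probes changed. For Lrrc52 they were S100a9 (0.29), S100a8 (0.41) and Lcn2 (0.43), 3 inflammatory genes that were higher in every LPS sample than in any control. For Shank2 they were the lncRNAs XR_590074 (0.35), ENSRNOT00000083119 (0.45) and ENSRNOT00000086932 (0.49). For Cib2 they were XR_086340 (0.44), XR_597034 (0.47) and ENSRNOT00000083119 (0.48). The distance between Lrrc52 and Shank2 was 0.69 both before and after the subtraction, while 9 named probes other than Lrrc52 were then closer to Shank2. Shank2 was 0.62 from Cib2. With quantile normalisation the named probe nearest to Lrrc52 after subtraction was Nr0b2 (0.501), and with the authors' processed values it was Nr0b2 as well (0.504), while with normexp it was Lcn2 (0.280). The probe nearest to Cib2 was then ENSRNOT00000083119 with quantile normalisation (0.343), the authors' values (0.349) and normexp (0.392). XR_590074 remained nearest to Shank2 under all 4 alternatives tried.

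Nr0b2 had a level of -1.30 ± 1.07 (SD, n = 4) after LPS and 2.49 ± 0.97 (SD, n = 4) in the controls, a log2 difference of -3.80. The lncRNA ENSRNOT00000083119 had -1.77 ± 0.41 (SD, n = 4) after LPS and 0.185 ± 1.098 (SD, n = 4) in the controls. Like the 3 genes, both were lower in every LPS sample than in any control sample.

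The markers of other cells that have a paired probe come from the study's own lists of changed genes, so their difference between the groups was fixed by that choice. Of 8 listed brown adipocyte markers, the 2 paired with a probe, Ucp1 and Cox8b, were well above background on all 10 arrays. Their summed relative intensity was 34.1 to 105.2 in the LPS samples and 364.2 to 929.8 in the control samples, in units of the array's 75th percentile. Ucp1 was lower in every LPS sample than in any control, whereas the groups overlapped for Cox8b, with a log2 level up to 4.73 after LPS and down to 4.50 in the controls. Of 5 listed neutrophil markers, the 2 paired with a probe, S100a8 and S100a9, summed to 54.2 to 116.9 in the LPS samples and 1.23 to 8.22 in the control samples. The part of either cell type in the levels of Lrrc52, Shank2 and Cib2 was not tested. Of the lists of white adipocyte, skeletal and cardiac muscle, nerve and lymphocyte markers, no gene is paired with a probe.

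The partners of the 3 proteins could not be followed for the same reason. Of 12 genes of BK and related channels, Lrrc52 alone is paired with a probe, of 14 genes of the Shank scaffold Shank2 alone, and of 10 genes of the Cib family and its partners Cib2 alone. Kcnma1, Kcnmb1, the Homer genes and the other Cib genes are therefore not analysed here.

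The promoters of Lrrc52 and Cib2 are shown for comparison. Shank2 was lower after LPS as well, but no promoter sequence for it was at hand. Each window runs from 250 bases before to 50 bases after a RefSeq start in GRCr8. The Lrrc52 window is chr13:82153520-82153819 on the minus strand, and capitals mark its E-boxes (CANNTG, which reads alike on both strands). The Cib2 window is chr8:63843228-63843527 on the minus strand, and capitals mark its GC boxes (GGGCGG on either strand). It is set on a RefSeq start inside the gene rather than at the gene's outer end, position 63843301.
Lrrc52 promoter: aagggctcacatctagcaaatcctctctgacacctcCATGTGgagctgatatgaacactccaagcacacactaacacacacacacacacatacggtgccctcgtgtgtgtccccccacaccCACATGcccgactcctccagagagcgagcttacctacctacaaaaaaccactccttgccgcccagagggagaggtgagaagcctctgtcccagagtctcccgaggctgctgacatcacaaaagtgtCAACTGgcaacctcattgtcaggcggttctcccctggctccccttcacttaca
Cib2 promoter: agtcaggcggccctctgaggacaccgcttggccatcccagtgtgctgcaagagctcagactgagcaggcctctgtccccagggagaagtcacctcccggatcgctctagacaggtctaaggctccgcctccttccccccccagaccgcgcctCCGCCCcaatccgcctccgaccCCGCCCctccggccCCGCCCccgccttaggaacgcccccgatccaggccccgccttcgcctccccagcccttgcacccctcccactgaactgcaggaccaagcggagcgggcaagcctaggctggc

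The windows differ in base composition. Lrrc52 has 55.0% G and C with 7 CpG dinucleotides, near the medians of 51.7% and 7 over 33469 rat promoters of the same length. Cib2 has 70.0% G and C with 20 CpG dinucleotides, and 91.7% of promoters have a lower share of G and C. Lrrc52 holds 3 E-boxes, a motif found in 72.1% of these promoters, and 1 GC box, found in 33.1%. Cib2 holds 3 GC boxes, 1 CCAAT box (CCAAT on either strand, found in 37.5%) that shares 1 base with a GC box, and no E-box. Neither holds the letters TATAAA on either strand, which 14.2% of promoters do.

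The sequence of the array probes is not in the files used here. The study also designed PCR primers for the 3 mRNAs, which mark the transcripts it meant to measure and are given 5′ to 3′ in lower case. The outcome of that PCR was not part of the data used here and is not described.
Lrrc52 forward primer: agtggaaacccgtggaagtg
Lrrc52 reverse primer: ctccgtacacgtggcattct
Shank2 forward primer: tacccccattgaggaattcac
Shank2 reverse primer: caatcaagaagtccccggtc
Cib2 forward primer: taccaggactgcactttcttca
Cib2 reverse primer: acgatggggctcttcctgta

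**Figure D5:**
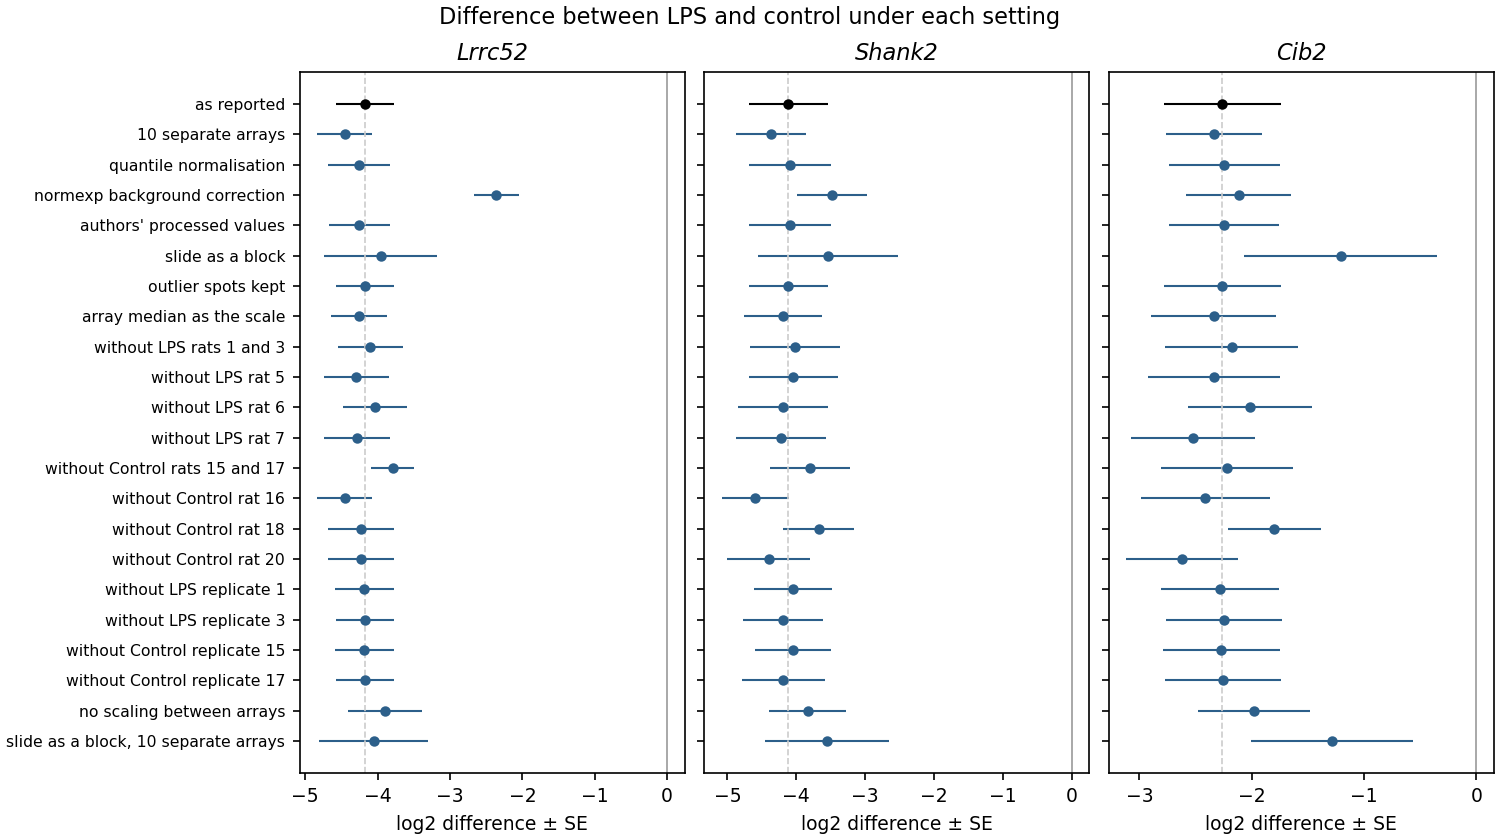
Log2 difference between LPS and control with its standard error (x axis) under each setting of the analysis (y axis), with the reported value in black and a dashed line through it. All 21 other settings kept the differences of the 3 genes below 0. The values that stand apart are Lrrc52 with normexp background correction (-2.36) and Cib2 with the slide as a block over 8 samples (-1.21) and over 10 separate arrays (-1.29). With the block the difference rests on slide 2 alone.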

How the data were processed

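Total RNA of 10 rat aortas was labelled with Cy3 and hybridised to Agilent arrays. Per the file headers, the deposited intensity values come from Feature Extraction 11.0.1.1, whose background correction works on 1 array at a time; no step of it makes arrays comparable. The authors also deposited processed log2 values, whose method is not given in the sources used here. They correlated with the log2 scanner intensities at 0.990 or more and served as an alternative.

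Control spots and spots marked as outliers were left out, and log2 intensity was taken relative to each array's 75th percentile. Arrays whose median squared difference over probes was no more than spot error alone would give were averaged. The fit, for probes that 5 or more arrays showed well above background, was made with limma 3.58.1 in R 4.3.3, after a check on simulated data, with Benjamini-Hochberg adjustment. No label pairs an LPS rat with a control rat, so the groups were compared without pairing. The number of samples limits the precision. The SDs describe the spread between the samples of a group. The standard errors are limma's moderated ones, which also draw on the spread of the other tested probes.

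Only the probes that the study's lists name have a gene name here. The genes described are the 3 members, members of fixed pathway lists with a paired probe, and the 3 named probes closest to each member. These genes and lists were chosen with earlier results of these data known. The normexp alternative used the median signals with an offset of 50.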

Additional observations from a re-analysis of the deposited data

How the results depend on the processing

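The log2 difference kept its sign for Lrrc52, Shank2 and Cib2 under all 21 other settings. With each of the 8 samples left out in turn it lay between -4.46 and -3.79 for Lrrc52, -4.59 and -3.67 for Shank2, and -2.62 and -1.80 for Cib2. It moved furthest from the reported value in 3 cases. Normexp background correction gave -2.36 for Lrrc52, and the slide as a block gave -1.21 for Cib2 over the 8 samples and -1.29 over 10 separate arrays. With that block the difference rests on slide 2 alone, where control rat 20 is the only control. The authors' processed values gave -4.25, -4.09 and -2.25. The count of 20 probes called lower was 111 with 10 separate arrays, 3 with the slide as a block, 80 with that block over 10 arrays, 565 with the methods' t-test without adjustment and 1 with it adjusted, and 4 to 28 with samples left out. It was 4 without LPS rat 7, where Lrrc52 alone of the 3 genes was called, 7 without LPS rat 6, 8 without LPS rats 1 and 3, 8 without LPS rat 5, 11 without control rats 15 and 17 and 13 without control rat 20. The count of 577 probes without overlap was 381 with 10 separate arrays, 42 without scaling, 656 to 1732 with samples left out and 508 to 691 with 1 array of an averaged pair left out. The cause of these changes was not tested. The t-test used the 8 samples and the scaling of the reported setting, so it does not repeat the study's own test. The median difference of all tested probes was 0.09 as reported, -0.10 with normexp and 0.37 without scaling. The unscaled values, the block over 10 arrays and the omission of 1 array of an averaged pair were chosen after seeing the data. No paired analysis was possible because no label pairs an LPS rat with a control rat. The Lrrc52 spots after LPS were within 3.75 times their local background, and the part of this in its fold change was not tested.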
